A study of Mus musculus with 10 samples.

Results

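The core glycolysis enzymes described here are 10 genes, Hk1, Hk2, Gpi1, Pfkl, Aldoa, Gapdh, Pgk1, Eno1, Pkm and Ldha, which together cover most steps from glucose to lactate. They were chosen by symbol among the 33393 genes of the deposited tables, where they are represented by 93 of 95912 transcripts. All 10 passed the filter on low values (a TPM, the transcript level scaled to a fixed total per library and to transcript length, of at least 1 in at least 5 of 10 libraries), which 12874 genes passed. RNA-seq had been performed on hematopoietic stem cells (HSCs) sorted from mouse bone marrow as lineage marker-negative cells that carry Sca-1 and cKit and lack CD34 and Flt3. The control mice were Reg1flox/flox, with both alleles of the gene for the ribonuclease Regnase-1 (Zc3h12a) floxed, and the Reg1Δ/Δ mice carried in addition the Vav1-iCre transgene, whose recombinase is active throughout the blood lineages and not in HSCs alone. All mice were C57BL/6 and 8 weeks old. A first experiment held 3 control and 3 Reg1Δ/Δ libraries and a second held 2 of each, and the labels do not say whether these came from separate mice, so that p-values measure the spread between libraries only.

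Glycolysis splits glucose into pyruvate and yields ATP without oxygen. Hexokinases trap glucose in the cell, phosphofructokinase commits it to the pathway, pyruvate kinase performs the last ATP-yielding step, and lactate dehydrogenase turns pyruvate into lactate. Several steps are run by alternative isozymes from different genes, or from alternatively spliced mRNAs of a single gene, whose use differs between tissues. Quiescent HSCs in the bone marrow are known for relying on glycolysis, under the hypoxia-inducible factor Hif1a, more than their dividing progeny do.

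The labels were checked first. Zc3h12a stood at 1.28 to 1.83 TPM in the controls of experiment 1 and at 2.08 to 3.54 TPM in the libraries labelled Reg1Δ/Δ. In experiment 2 the controls had 1.48 and 6.07 TPM and the libraries labelled Reg1Δ/Δ had 10.3 and 8.52 TPM. The gene that was to be deleted read higher, not lower, under the label Reg1Δ/Δ (log2 fold change 0.83 ± 0.28 SE, false discovery rate (FDR) by limma with Benjamini-Hochberg adjustment 0.0314). Neither experiment alone passed (FDR 0.0527 and 0.265), the replicate number as a block gave an FDR of 0.0505, and the call was lost without the second control or the first library labelled Reg1Δ/Δ of experiment 1, or without either library labelled Reg1Δ/Δ of experiment 2 (FDR 0.0595 to 0.0768). It was also lost without the experiment covariate (FDR 0.214) and without the filter on low values (FDR 0.0897). Without the first control of experiment 2 the log2 fold change was 0.53, and after quantile normalization it was 1.73 (FDR 0.000174). It also passed after median-of-ratios scaling (1.08, FDR 0.00629) and with only protein-coding transcripts (0.92, FDR 0.00435). Transcript totals do not show which exons the reads cover, and every direction below rests on the labels. Of the 10 stem cell markers, 9 were lower in the libraries labelled Reg1Δ/Δ and Ly6a did not pass the test. The list holds Cd34 and Flt3, which the sort was to leave out: in the controls Cd34 read 51.9 to 236 TPM and Flt3 11 to 33.9 TPM, and in the libraries labelled Reg1Δ/Δ 9.54 to 19.8 and 1.16 to 2.21 TPM. Procr, a defining HSC marker, was at 19.8 to 37.3 TPM in the 5 controls and at 0.108 to 1.36 TPM in the 5 libraries labelled Reg1Δ/Δ, and Hlf, a transcription factor of HSCs, at 33.9 to 176 and 0.791 to 2.72 TPM. Of 14 proliferation genes 7 were higher, and of 6 tested megakaryocyte markers 1 was higher and 4 lower. The number of genes with at least 1 TPM was 13366 to 14307 in the controls and 11256 to 12048 in those labelled Reg1Δ/Δ. Higher levels in the libraries labelled Reg1Δ/Δ were called for 15.0% of all tested genes and lower levels for 37.9%, at an FDR below 0.05, and the median of the log2 fold changes was -0.25. The table of the second library labelled Reg1Δ/Δ of experiment 2 carries in its header the name of the first. Without that library the log2 fold changes of the 5 members called below were 1.16 (Hk1), -0.75 (Hk2), -0.40 (Pfkl), -2.67 (Pkm) and 0.69 (Ldha), and all 5 still passed.

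The members did not move in one direction. Hk1 and Ldha rose, Hk2, Pfkl and Pkm fell, and Gpi1, Aldoa, Gapdh, Pgk1 and Eno1 did not pass the test. The 5 calls among 10 members stand against the 15.0% and 37.9% of all tested genes given above, so that the number called is near the background. The median log2 fold change of the members was 0.06, against -0.25 for all tested genes. Relative to that background the members' median differed by 0.31, and by -0.11 after quantile normalization. In the sum over the 10 genes, the members held 0.431 to 0.505% of all TPM in the controls and 0.458 to 0.551% in the libraries labelled Reg1Δ/Δ of experiment 1, which overlap, and 0.382 and 0.449% against 0.565 and 0.498% in experiment 2, which do not.

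**Figure D1:**
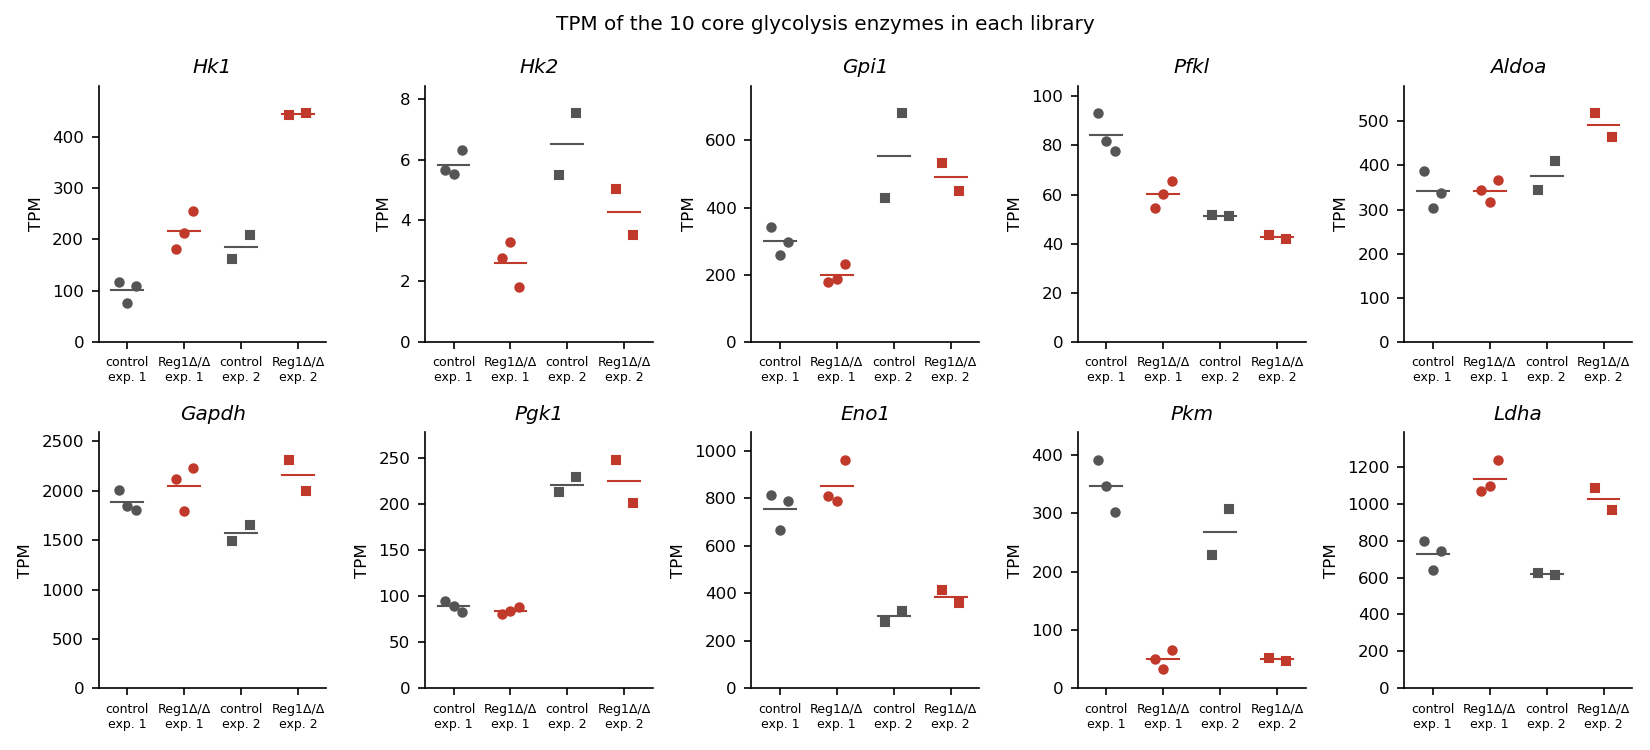
Level of each core glycolysis enzyme in TPM (vertical axes, from 0) in every library, by group and experiment; points are libraries (circles, experiment 1; squares, experiment 2), grey for control and red for labelled Reg1Δ/Δ, and lines are group means. Pkm lies between 33.2 and 65.8 TPM in all red points and between 228 and 391 TPM in all grey ones, while Hk1 and Ldha are higher in red than in grey within each experiment.

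Hexokinase performs the entry step. Hk1 is the widely expressed form. It had 117, 76.0 and 108 TPM in the controls of experiment 1 and 182, 212 and 256 TPM in its libraries labelled Reg1Δ/Δ. In experiment 2 it had 162 and 209.6 TPM in the controls and 442 and 446 TPM in the libraries labelled Reg1Δ/Δ. The groups did not overlap in either experiment, and Hk1 was 2.26-fold higher (log2 fold change 1.17 ± 0.15 SE, FDR by limma 0.000168, on the log2(TPM + 1) scale used for all folds here). Hk2, the form that insulin, hypoxia and growth signals induce in other tissues, was the least abundant member. It had 5.68, 5.52 and 6.32 TPM in the controls and 2.75, 3.29 and 1.80 TPM in the libraries labelled Reg1Δ/Δ of experiment 1, and 5.49 and 7.53 against 5.02 and 3.53 TPM in experiment 2. Every library labelled Reg1Δ/Δ was below the controls of its experiment, though by little in experiment 2 (log2 fold change -0.77 ± 0.16 SE, FDR 0.00312). The fall of Hk2 depended on the scaling: after quantile normalization its log2 fold change was 0.05 (FDR 0.793).

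Measured as a share, which a single factor per library cannot alter but a rank-based quantile normalization can (not computed here), Hk2 made up 5.64% ± 1.08 (SD, n = 3) of Hk1 + Hk2 in the controls of experiment 1 and 1.24% ± 0.47 in those labelled Reg1Δ/Δ. In experiment 2 the shares were 3.37% ± 0.13 and 0.95% ± 0.24 (SD, n = 2). The share was lower in every library labelled Reg1Δ/Δ, by 3.61 percentage points (two-sided exact permutation test with labels exchanged inside each experiment, p = 0.0167, the smallest that the 120 assignments allow; 0.025 after Benjamini-Hochberg adjustment over the 3 shares tested). With only transcripts annotated as protein-coding summed, the difference was -1.96 points, at the same p. Transcripts under 1000 bases held 61.0 to 81.0% of Hk2 TPM in experiment 1 and 0% in experiment 2. Hk3, a hexokinase of myeloid cells, was at 9.04 to 49.1 TPM in the controls and at 2.11 to 9.41 TPM in the libraries labelled Reg1Δ/Δ (log2 fold change -2.05 ± 0.47 SE, FDR 0.00457). The 3 hexokinases summed to 114 to 172 TPM in the controls and 188 to 267 TPM in the libraries labelled Reg1Δ/Δ of experiment 1, and to 176.5 and 240.3 against 454 and 457 TPM in experiment 2, so Hk1 outweighed the fall of the others. Hk1 alone made up 66.8 to 91.8% of that sum in the controls and 95.8 to 97.6% in those labelled Reg1Δ/Δ, as values with no test, chosen after they had been seen.

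The rise of Hk1 was carried by 3 of its 4 abundant transcripts, which differ in their first exon. The gene spans chr10:62268855-62379908 on the minus strand (GRCm38), and 5 of its 7 transcripts could be tested. Hk1-201, whose first exon lies at chr10:62358336-62358362, rose from between 17.9 and 27.2 TPM to between 46.6 and 63.9 TPM in experiment 1 and from 51.7 and 67.1 to 149.9 and 155.6 TPM in experiment 2 (log2 fold change 1.25 ± 0.17 SE). Hk1-205, with a first exon at chr10:62342501-62342722, had a log2 fold change of 1.03 ± 0.22 SE. Hk1-212, a short transcript of 896 bases that starts with an exon at chr10:62327403-62327767, had one of 1.59 ± 0.19 SE. All 3 passed an FDR of 0.05 over all transcripts and their groups did not overlap in either experiment. Hk1-202, which starts at chr10:62340013-62340542, had 11.7, 8.37 and 10.4 against 6.17, 6.72 and 8.67 TPM in experiment 1 and 30.6 and 31.4 against 39.3 and 27.2 TPM in experiment 2. Its groups overlapped and it did not pass the test (log2 fold change -0.24 ± 0.18 SE, FDR 0.38). The difference in response between Hk1-202 and the other transcripts was not tested, and the split of reads between transcripts is the estimate of the authors' quantification. Over all members, 4 of the 51 transcripts tested were higher and 4 lower, beside 6.40% and 14.9% of all 31937 transcripts tested. With the replicate number as a block, 2 rather than 4 were lower. The number of lower transcripts also moved with single libraries: it was 8 without the first control of experiment 2, and 2 without the first or the second control or the first or the third library labelled Reg1Δ/Δ of experiment 1.

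**Figure D2:**
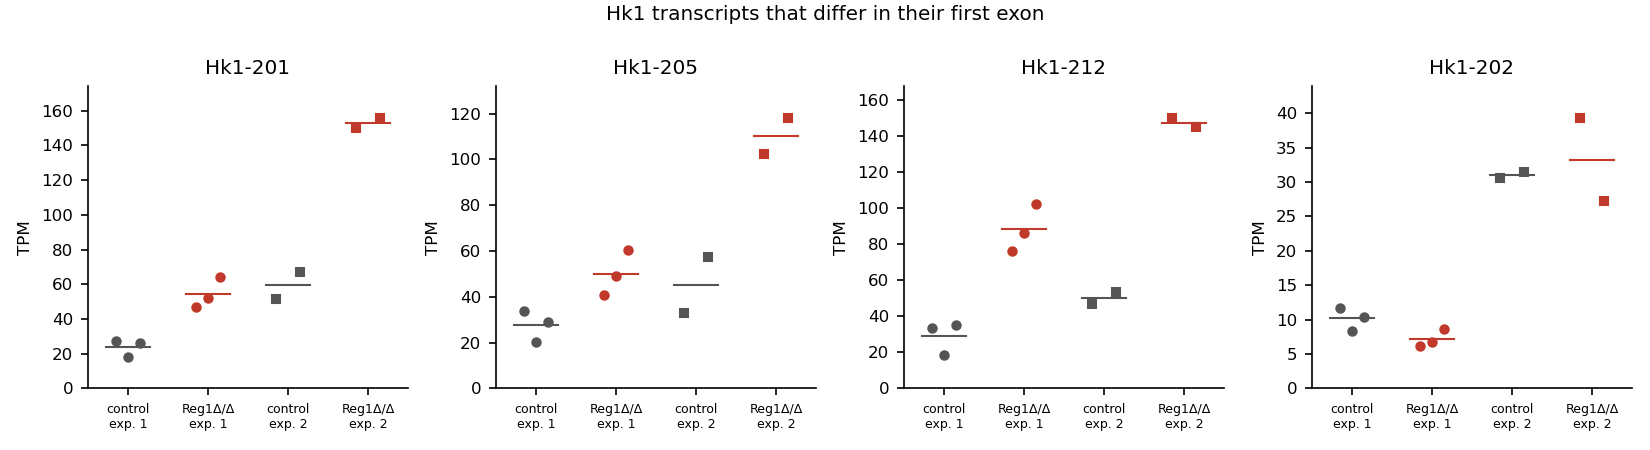
TPM (vertical axes, from 0, each with its own scale) of 4 Hk1 transcripts with different first exons, by library; circles are experiment 1 and squares experiment 2, grey control and red labelled Reg1Δ/Δ, lines group means. Red points lie above grey ones within each experiment for Hk1-201, Hk1-205 and Hk1-212, and overlap or lie below them for Hk1-202.

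Gpi1, the isomerase that turns glucose-6-phosphate into fructose-6-phosphate, had 343, 258 and 298 TPM in the controls and 178, 188 and 232 TPM in the libraries labelled Reg1Δ/Δ of experiment 1. In experiment 2 its groups overlapped, with 428 and 681 against 532 and 450.2 TPM. It did not pass in the joint test (log2 fold change -0.41 ± 0.17 SE, FDR 0.067), while in experiment 1 alone it did (log2 fold change -0.58, FDR 0.0273). It also passed without the first control of experiment 2 (-0.55, FDR 0.00728) and without the first library labelled Reg1Δ/Δ of experiment 2 (-0.48, FDR 0.0489). Near the same fold it passed with at least 1 TPM in every library (FDR 0.0495) and with TPM rescaled over protein-coding genes (FDR 0.0462). It also passed with a trended prior in eBayes (FDR 0.0474) and after quantile normalization (-0.49, FDR 0.0231). After median-of-ratios scaling its log2 fold change was -0.05 (FDR 0.756), and in experiment 2 alone -0.14 (FDR 0.799). Its call thus lies at the threshold and depends on the scaling.

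Phosphofructokinase is the committed and most regulated step. Pfkl, its liver-type subunit, had 93.1, 81.7 and 77.8 TPM in the controls and 54.7, 60.0 and 65.6 TPM in the libraries labelled Reg1Δ/Δ of experiment 1, and 51.5 and 51.1 against 43.4 and 42.0 TPM in experiment 2. The groups did not overlap in either, and the difference was small (log2 fold change -0.39 ± 0.10 SE, FDR 0.00901). It was -0.04 after median-of-ratios scaling (FDR 0.683) and -0.32 after quantile normalization (FDR 0.013), and it did not pass without the experiment as covariate (FDR 0.235). The other subunits, taken from the fixed list, went apart. Pfkm, the muscle type, rose from between 18.6 and 31.5 TPM to between 52.3 and 68.7 TPM in experiment 1 and from 41.6 and 75.1 to 107 and 87.9 TPM in experiment 2 (log2 fold change 1.02 ± 0.21 SE, FDR 0.00225), and Pfkp, the platelet type, fell by 0.71 ± 0.14 SE on the log2 scale (FDR 0.00171). The sum of the 3 subunits was 113 to 181 TPM in the controls and 137 to 168 TPM in the libraries labelled Reg1Δ/Δ, overlapping ranges. Pfkm made up 12.9 to 19.96% of it in the controls and 38.2 to 42.8% in those labelled Reg1Δ/Δ of experiment 1, and 36.7 and 49.0% against 63.8 and 60.8% in experiment 2; these values were chosen after they had been seen and carry no test.

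The middle steps split the sugar and carry the resulting trioses towards pyruvate, and 4 members that did not pass the test with the TPM as deposited belong to them. Aldoa, the main aldolase, was at 304 to 387 TPM in the controls and 317 to 367 TPM in the libraries labelled Reg1Δ/Δ of experiment 1, with overlap, and at 344 and 409.9 against 518 and 465 TPM in experiment 2 (log2 fold change 0.16 ± 0.12 SE, FDR 0.306). Gapdh, the glyceraldehyde-3-phosphate dehydrogenase often used as a reference gene, had 2008, 1844 and 1804 against 2123, 1796 and 2234 TPM in experiment 1 and 1489 and 1649 against 2312 and 1999 TPM in experiment 2. Its groups overlapped in the first experiment only (log2 fold change 0.25 ± 0.11 SE, FDR 0.0905). Pgk1, the kinase that makes the first ATP of the pathway, overlapped in both experiments, with 83.5 to 95.2 against 80.8 to 88.6 TPM and 213 and 230.1 against 248 and 201 TPM (log2 fold change -0.04 ± 0.10 SE, FDR 0.746). Eno1, the main enolase, had 812, 666 and 787 against 808, 787 and 962 TPM, and 278 and 327 against 414 and 358 TPM (log2 fold change 0.24 ± 0.11 SE, FDR 0.0977). These 4 results depended on the scaling: after median-of-ratios scaling, Aldoa (0.51), Gapdh (0.61), Pgk1 (0.31) and Eno1 (0.60) were all higher at an FDR under 0.05, and after quantile normalization none of the 4 was called. Median-of-ratios scaling shifted the median gene too: relative to it Aldoa, Gapdh, Pgk1 and Eno1 lay at 0.41, 0.51, 0.21 and 0.50 with the TPM as deposited and at 0.46, 0.56, 0.26 and 0.55 after that scaling. Gapdh also passed without the second library labelled Reg1Δ/Δ of experiment 1 (log2 fold change 0.32, FDR 0.0423).

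Processed copies share reads with some of these genes. In a search of the annotated transcripts, 76 genes of the files matched Gapdh at 95% identity or more over at least 50% of their length, and together they held 4.59 to 15.6% of the TPM of Gapdh plus copies. Gm12671, identical to Gapdh over its 1002 bases, alone was at 298 to 365 TPM in experiment 1 and at 0 in experiment 2. Gm5537 and Pgk1-rs7, identical to Pgk1, brought the copies' part to 10.2 to 28.4% of Pgk1 plus copies. Levels of Gapdh and Pgk1 are uncertain to that extent, but with the copies added the log2 fold changes were 0.25 and 0.05 and neither was called.

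Pkm, which encodes the muscle-type pyruvate kinase and makes the pyruvate and the last ATP of the pathway, showed the largest change of the 10. It fell from 391, 347 and 302 TPM in the controls to 50.2, 33.2 and 65.8 TPM in the libraries labelled Reg1Δ/Δ of experiment 1, and from 228 and 307 to 51.9 and 47.1 TPM in experiment 2. The highest library labelled Reg1Δ/Δ was far below the lowest control, and the level was 6.28-fold lower (log2 fold change -2.65 ± 0.19 SE, FDR 4.16e-06). The log2 fold change was -2.82 in experiment 1 alone (FDR 0.000326) and -2.40 in experiment 2 alone (FDR 0.0249). Among the 12874 tested genes Pkm ranked 444th and 451st by level in the controls of the first and the second experiment, and 3048th and 2667th in the libraries labelled Reg1Δ/Δ.

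Markers of other cells moved with it. The 10 B lineage markers summed to 183 to 1196 TPM in the controls and 5.58 to 23.9 TPM in the libraries labelled Reg1Δ/Δ of experiment 1, and to 1392 and 1589 against 8.68 and 2.75 TPM in experiment 2; all 8 that could be tested were lower. The 13 neutrophil and monocyte markers summed to 3539 to 5850 against 376 to 1246 TPM and to 12060 and 13940 against 1094 and 999 TPM, with 10 lower. The 8 T and NK cell markers, of which both that could be tested were lower, summed to 231 to 284.5 against 93.3 to 146 TPM in experiment 1 and to 95.3 and 72.8 against 47.0 and 36.0 TPM in experiment 2. The lineage-negative sort was meant to remove mature cells, and these sums do not tell mature cells from their progenitors. The part of other cell types and of the lost stem cell markers in the members' results was not tested, and in bulk libraries fewer cells of a type and less RNA per cell cannot be told apart.

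Pkm makes 2 forms of the enzyme through a pair of exons of 167 bases each, of which an mRNA holds only a single member. The M2 form, found in dividing and embryonic cells, is activated by an earlier intermediate of the pathway, and the M1 form of muscle and brain is always active. The 2 exons are shown because reads that cover them are what separates the forms; they come from the coding part of the gene on the plus strand of chromosome 9 (GRCm38), at chr9:59675029-59675195 for M1 (transcript Pkm-202) and chr9:59675568-59675734 for M2 (transcript Pkm-201), written 5′ to 3′ with capitals where they differ.
Pkm M1 exon: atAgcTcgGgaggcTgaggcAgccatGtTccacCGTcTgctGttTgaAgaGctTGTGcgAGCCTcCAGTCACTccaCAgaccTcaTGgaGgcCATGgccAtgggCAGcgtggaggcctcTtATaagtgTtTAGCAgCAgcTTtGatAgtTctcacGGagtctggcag
Pkm M2 exon: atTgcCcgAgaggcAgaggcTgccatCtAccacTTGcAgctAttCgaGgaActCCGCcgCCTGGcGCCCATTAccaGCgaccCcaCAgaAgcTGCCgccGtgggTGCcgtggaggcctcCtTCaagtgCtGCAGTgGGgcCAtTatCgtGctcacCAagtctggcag
The exons differ at 64 of 167 positions and are 61.7% identical, so that reads over them can tell the forms apart.

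Both forms fell. The mRNA with the M2 exon went from 214, 185 and 162 TPM to 25.8, 20.8 and 39.8 TPM in experiment 1 and from 189 and 238 to 47.1 and 44.7 TPM in experiment 2 (log2 fold change -2.49 ± 0.21 SE). The mRNA with the M1 exon went from 50.5, 47.0 and 47.6 to 8.86, 2.96 and 4.06 TPM and from 33.4 and 63.5 to 4.22 and 1.78 TPM (log2 fold change -3.30 ± 0.31 SE). Neither form overlapped between the groups. M2 was the main form throughout, with 79.3% ± 1.85 (SD, n = 3) of M1 + M2 in the controls and 84.2% ± 8.62 in those labelled Reg1Δ/Δ of experiment 1, and 82.0% ± 4.32 and 94.0% ± 3.10 (SD, n = 2) in experiment 2. The groups overlapped in experiment 1, and the difference of 7.75 percentage points did not pass the test (exact permutation test, two-sided, p = 0.0667, and 0.0667 after adjustment over the 3 shares). Without the first library labelled Reg1Δ/Δ of experiment 1, where the share was 74.5%, the difference was 10.8 points and passed (exact permutation, adjusted p = 0.0167). That library was the only one labelled Reg1Δ/Δ that did not lie above its controls. Its removal left no overlap, so this pass does not add to the test of all libraries.

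**Figure D3:**
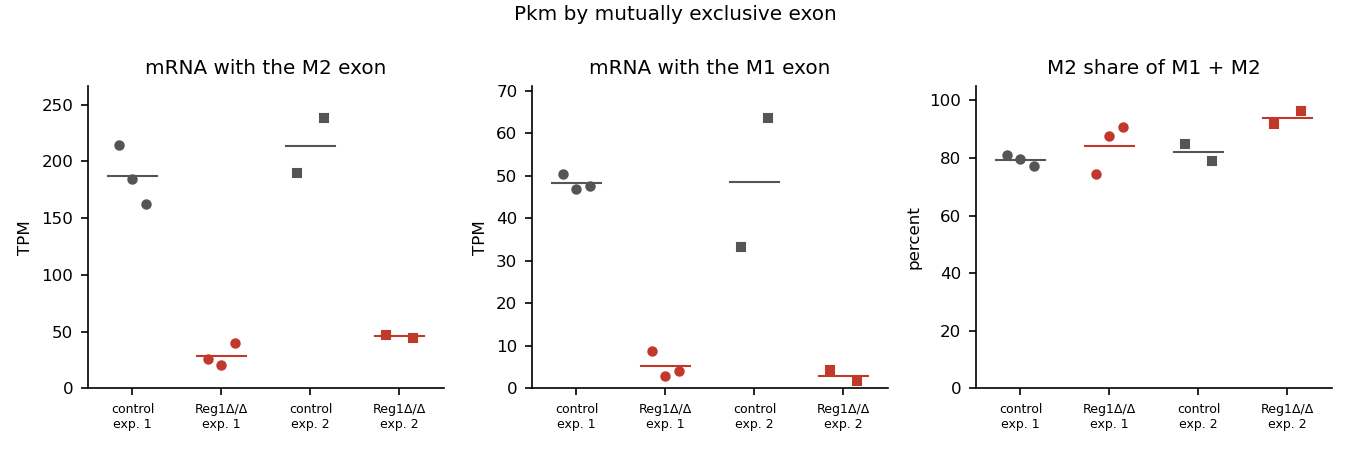
Pkm mRNA with the M2 exon and with the M1 exon in TPM, and the M2 form as a percent of both (vertical axes, from 0), by library; circles are experiment 1 and squares experiment 2, grey control and red labelled Reg1Δ/Δ, lines group means. Both forms are lower in all red points than in any grey point, whereas the M2 share of 74.5 to 90.7% in the red points of experiment 1 spans the 77.3 to 80.9% of its controls.

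Pklr, the gene for the pyruvate kinase of liver and red cells, moved the other way. It rose from 13.5, 3.72 and 17.01 TPM to 34.6, 40.2 and 48.4 TPM in experiment 1 and from 59.2 and 63.0 to 176.5 and 134 TPM in experiment 2 (log2 fold change 1.70 ± 0.34 SE, FDR 0.00217). Of Pkm + Pklr, Pklr was 1.06 to 5.33% in the controls and 40.8 to 54.8% in those labelled Reg1Δ/Δ of experiment 1, and 20.6 and 17.02% against 77.3 and 74.0% in experiment 2. The sum of both genes was nonetheless lower, at 319 to 405 against 73.4 to 114 TPM and at 287 and 370.2 against 228 and 181 TPM. The share and the sum were chosen after the values had been seen and carry no test. The 9 erythroid markers summed to 3369 to 6076 TPM in the controls and 8287 to 9091 TPM in the libraries labelled Reg1Δ/Δ of experiment 1, and to 8344 and 6621 against 7062 and 7207 TPM in experiment 2. Of them, 3 were higher and 5 lower: Klf1, the erythroid master transcription factor, had a log2 fold change of 1.80 and the carbonic anhydrase Car1 one of 2.24, and the heme synthesis enzyme Alas2 had one of -2.13 and the globin Hbb-bs one of -3.19. The part of erythroid cells in the values of Pklr was not tested.

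Ldha, the lactate dehydrogenase subunit that favors the making of lactate, rose. It had 798, 639 and 743 TPM in the controls and 1068, 1094 and 1238 TPM in the libraries labelled Reg1Δ/Δ of experiment 1, and 625 and 616 against 1083 and 964 TPM in experiment 2. The groups did not overlap in either experiment, and the level was 1.59-fold higher (log2 fold change 0.67 ± 0.10 SE, FDR 0.000396). Nearly all of it was the full-length Ldha-202, with 597 to 784 TPM in the controls and 931 to 1226 TPM in the libraries labelled Reg1Δ/Δ. Ldhb, the subunit that favors the reverse reaction, fell from 97.7, 65.1 and 60.6 TPM to 3.97, 3.88 and 4.56 TPM and from 54.7 and 49.4 to 2.15 and 3.20 TPM (log2 fold change -3.85 ± 0.15 SE, FDR 2.3e-07). Ldha therefore went from 89.1 to 92.6% of Ldha + Ldhb in the 5 controls to 99.6 to 99.8% in the 5 libraries labelled Reg1Δ/Δ, with a difference of 8.31 percentage points (exact permutation test, two-sided, p = 0.0167, adjusted 0.025).

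**Figure D4:**
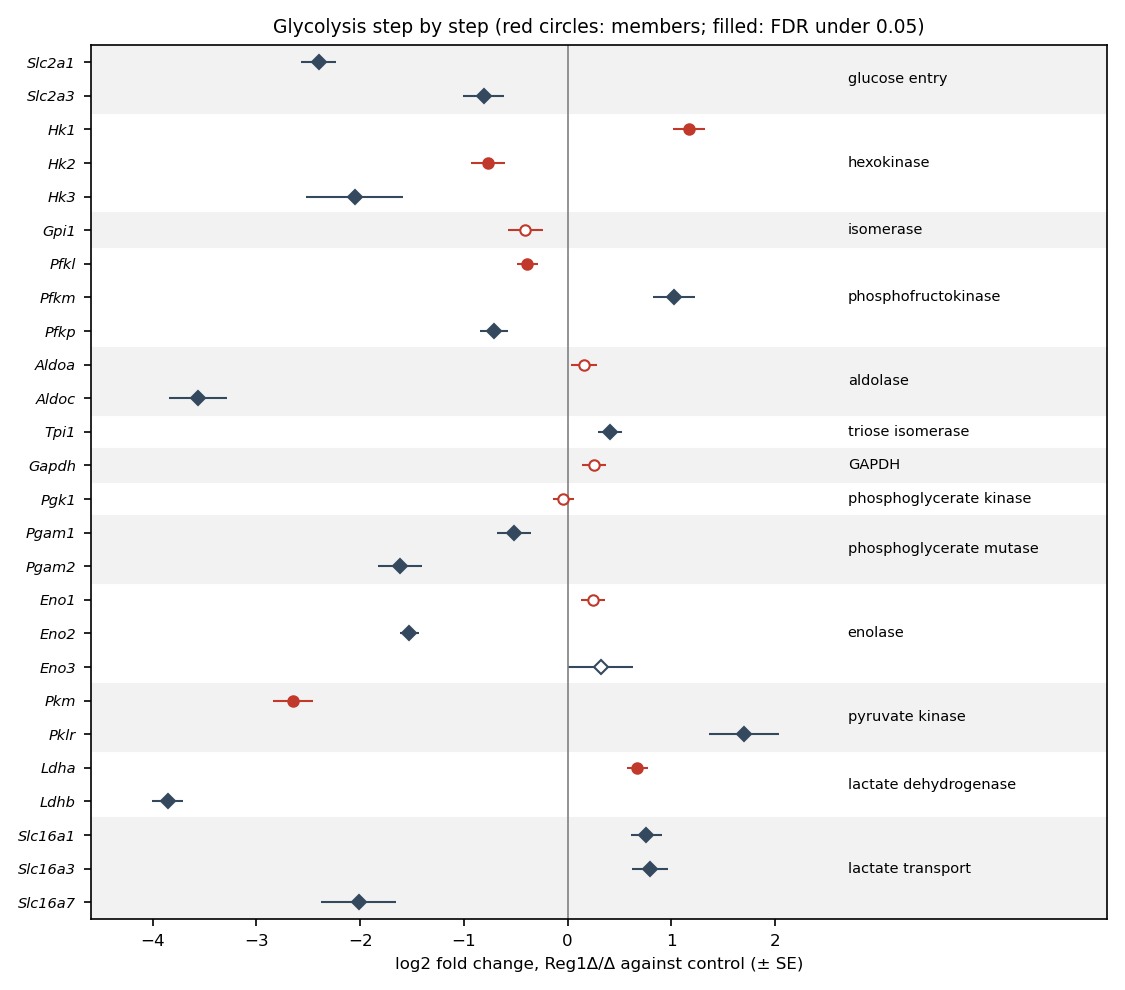
Log2 fold change (horizontal axis, log2(TPM + 1) scale, bars ± SE) of the members (red circles) and of other tested glycolysis and transport genes (dark diamonds), libraries labelled Reg1Δ/Δ against controls, ordered from glucose entry at the top to lactate export at the bottom; filled symbols passed an FDR of 0.05. Within the hexokinase, phosphofructokinase, pyruvate kinase and lactate dehydrogenase steps the isozymes lie on opposite sides of 0, as do those of aldolase and enolase. The lactate transporters also lie on both sides. Ldhb at -3.85 and Pklr at 1.70 are the extremes.

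In all, the groups of 2 members, Hk1 and Ldha, did not overlap in either experiment with the libraries labelled Reg1Δ/Δ higher, beside 12.7% of all tested genes, and those of 3 members, Hk2, Pfkl and Pkm, with those libraries lower, beside 31.4%. In experiment 1 alone 2 members were higher and 4 lower (12.0% and 38.3% of all tested genes). In experiment 2 alone, with 2 libraries a group, Hk1 and Ldha were higher and Pkm lower (3.51% and 12.3%). By limma's interaction term 0 of the 10 members had an effect that differed between the experiments at an FDR under 0.05, and 0 at an unadjusted p under 0.05; among all tested genes 0.443% did at that FDR and 1603 of 12874 at the unadjusted threshold. The calls of Hk1, Pkm and Ldha held under every alternative tried, with log2 fold changes of 1.08 to 1.25, -2.76 to -2.49 and 0.63 to 0.72 as each library was left out in turn.

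Both rescalings of the libraries, which placed the median of all tested genes at 0.14 (quantile) and 0.05 (median-of-ratios) instead of -0.25, changed the calls of several members. Relative to the median gene the members lay at 1.43 (Hk1), 0.93 (Ldha), -0.51 (Hk2), -0.14 (Pfkl) and -2.40 (Pkm) on the log2 scale with the TPM as deposited, and at 0.93, 0.49, -0.09, -0.47 and -2.82 after quantile normalization. After median-of-ratios scaling they lay at 1.47, 0.98, -0.53, -0.09 and -2.35, close to the values with the TPM as deposited. With median-of-ratios scaling 6 members were higher and 2 lower, beside 30.9% and 26.6% of all tested genes. With quantile normalization 2 were higher and 3, Gpi1, Pfkl and Pkm, lower, beside 30.0% and 20.5%.

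**Figure D5:**
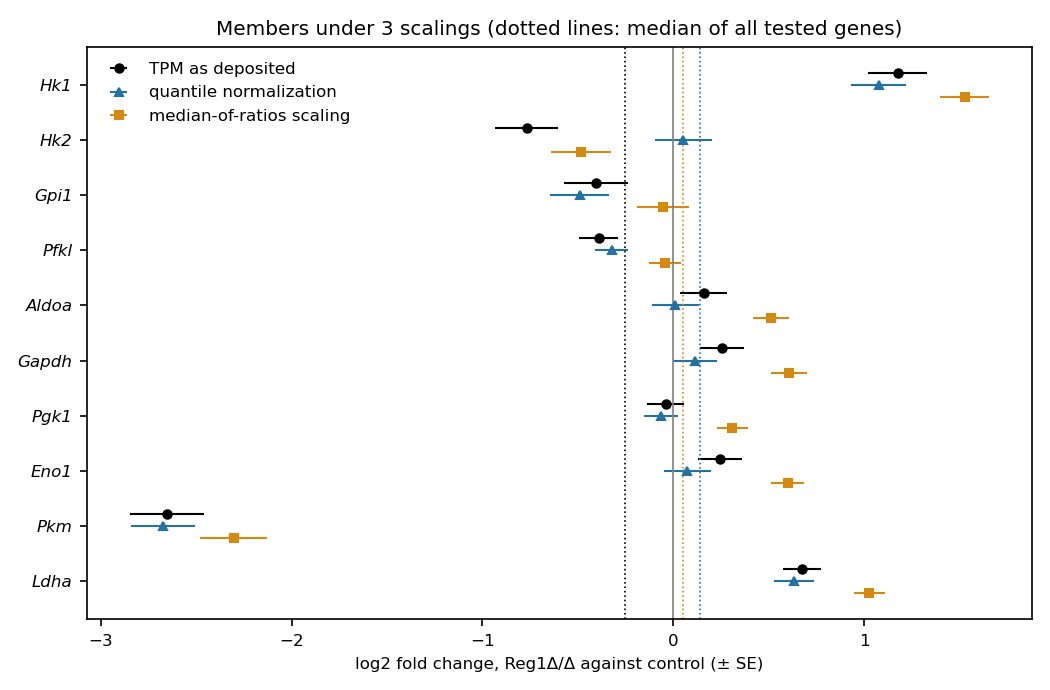
Log2 fold change of each member (horizontal axis, bars ± SE), libraries labelled Reg1Δ/Δ against controls, with the TPM as deposited (black circles), after quantile normalization (blue triangles) and after median-of-ratios scaling (orange squares); dotted lines mark the median of all tested genes under each. Hk1, Pkm and Ldha stay on their side of 0 under all 3, Hk2 crosses it under quantile normalization at 0.05, and Pgk1 under median-of-ratios scaling at 0.31.

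The order of the members by level, which TPM allows since it is per transcript length, was led by Gapdh in every group (means of 1569 to 2155 TPM, all transcripts counted) and closed by Hk2 (2.61 to 6.51 TPM). In the controls of experiment 1 Eno1 (755 TPM) and Ldha (727 TPM) followed with overlapping ranges, then Pkm, Aldoa and Gpi1 (347, 342 and 300 TPM), each overlapping the next, and Hk1, Pgk1 and Pfkl (100.3, 89.3 and 84.2 TPM), again each overlapping the next. In the libraries labelled Reg1Δ/Δ of experiment 1 Ldha (1133 TPM) stood above Eno1 (852 TPM) without overlap, and Pkm (49.7 TPM) had moved next to the last place, overlapping Pfkl (60.1 TPM). In the controls of experiment 2 Ldha and Gpi1 (620.4 and 554 TPM, overlapping) and Aldoa (377 TPM) stood above Eno1 (302 TPM), which overlapped Pkm (268 TPM). In the libraries labelled Reg1Δ/Δ of experiment 2 Pkm (49.5 TPM) stood below Pgk1 (225 TPM) and above Pfkl (42.7 TPM), with no overlap on either side. The mean levels of Eno1, Gpi1 and Pgk1 differed more between the experiments than between the groups of an experiment. Transcripts under 1000 bases, many of them annotated with retained introns, held 89.4 to 90.9% of Gapdh TPM and 74.5 to 77.0% of Eno1 TPM in experiment 1, and 10.6 to 14.5% and 0.00551 to 2.74% in experiment 2. The first place of Gapdh in experiment 1 rests on them. Gapdh-203, its most abundant transcript over that length, had 165 to 210.3 TPM there, against 627 to 1226 TPM for Ldha-202. Of Gpi1 TPM, transcripts under 1000 bases held 74.2 to 77.5% in experiment 1 and 56 to 68.1% in experiment 2. The place of Gpi1 above Aldoa and Eno1 in the controls of experiment 2 rests on them. Its most abundant transcript over that length, Gpi1-201, had 187 and 207 TPM there. Aldoa-201 had 324 and 388 TPM and Eno1-202 277 and 327 TPM. Counting only transcripts of at least 1000 bases, an alternative chosen after seeing the data, gave log2 fold changes of 0.96 for Hk1, -2.64 for Pkm and 0.68 for Ldha, kept all 5 calls and added Gpi1 as lower (-0.40, FDR 0.0132).

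The members followed each other to different degrees across the libraries. After centring within experiments, Pearson's r over the 10 libraries was 0.98 between Hk1 and Ldha, 0.92 between Pfkl and Pkm, -0.90 between Hk1 and Pkm and -0.91 between Pkm and Ldha; these describe mostly the difference between the groups, which the libraries share. The 10793 tested protein-coding genes outside the lists were compared with the mean of the 10 members over the same 10 libraries. Most alike were Vps41 (r = 0.981), Pcyox1 (0.967), Rela (0.966), Preb (0.965) and Sec31a (0.961). Their log2 fold changes were -0.32 to -0.22, and the mean includes the fall of Pkm (-2.65).

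The pathway around the members was described by 6 fixed lists of 91 genes, of which 72 could be tested, 17 were higher and 27 lower, beside 15.0% and 37.9% of all tested genes, with a median log2 fold change of -0.13. The same background applies to the counts of each list below. Of 13 tested other glycolysis enzymes, 3 were higher (Tpi1, Pfkm and Pklr) and 8 lower. Tpi1, the triose phosphate isomerase, rose by 0.41 ± 0.11 SE on the log2 scale (FDR 0.013), and Pgam1, the main phosphoglycerate mutase, fell by 0.52 ± 0.16 SE (FDR 0.0235). Aldoc, the brain-type aldolase, fell from between 37.1 and 46.9 TPM to between 1.14 and 4.39 TPM in experiment 1 and from 12.3 and 24.1 to 0.279 and 1.13 TPM in experiment 2 (log2 fold change -3.56 ± 0.28 SE), and the mutase Pgam2 fell by 1.62 ± 0.21 SE.

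Among 7 tested transport genes, 3 were higher and 3 lower. Slc2a1, the main glucose transporter GLUT1, fell from between 21.4 and 22.2 TPM to between 2.13 and 4.93 TPM in experiment 1 and from 11.3 and 15.4 to 1.56 and 2.0 TPM in experiment 2 (log2 fold change -2.40 ± 0.17 SE, FDR 3.5e-06). Slc2a3, a high-affinity glucose transporter, fell by 0.81 ± 0.20 SE (FDR 0.00691), with overlapping groups in experiment 2. Slc16a1, the lactate and pyruvate transporter MCT1, rose by 0.76 ± 0.15 SE (FDR 0.00216), and Slc16a7, a related monocarboxylate transporter, fell by 2.01 ± 0.36 SE (FDR 0.00114).

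Of 16 tested genes that control glycolysis and the entry of pyruvate into mitochondria, 4 were higher and 3 lower. Pdk2, a kinase that shuts the pyruvate dehydrogenase complex, fell by 0.78 ± 0.14 SE on the log2 scale (FDR 0.00115). Its relative Pdk1, a hypoxia-inducible gene, did not pass (log2 fold change 0.11 ± 0.18 SE, FDR 0.617), and Pdk4 did not pass the filter, with 0.347 to 1.70 TPM in the controls and 0 to 0.342 TPM in the libraries labelled Reg1Δ/Δ. Of 16 tested genes on the branches from glycolysis, 5 were higher and 3 lower. Fbp1, the gluconeogenic phosphatase that reverses the phosphofructokinase step, fell from between 74.8 and 125 TPM to between 5.69 and 9.62 TPM in experiment 1 and from 25.7 and 28.8 to 3.27 and 3.11 TPM in experiment 2 (log2 fold change -3.19 ± 0.21 SE, FDR 2.2e-06).

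Of 10 tested hypoxia and Myc regulators, 2 were higher and 5 lower. Hif1a, which drives many glycolysis genes in low oxygen, fell from between 33.9 and 54.1 TPM to between 7.80 and 9.04 TPM in experiment 1 and from 13.1 and 20.2 to 7.35 and 7.28 TPM in experiment 2 (log2 fold change -1.71 ± 0.23 SE, FDR 0.000223). Egln3, an oxygen-sensing prolyl hydroxylase, fell by 1.62 ± 0.13 SE, and Mycn, a Myc family gene expressed in HSCs, by 2.81 ± 0.21 SE. Myc, which activates several of the members in other cells, rose by 0.47 ± 0.13 SE (FDR 0.0124). Of 10 tested other hypoxia-responsive genes, 5 were lower and 5 did not pass (Ankrd37, Vegfa, Bnip3l, Ndrg1 and Ero1l, with log2 fold changes of -0.65, -0.57, 0.006, 0.39 and 0.42, all 5 given after their values were seen). Those named by rule were Bnip3 (-1.0), Car9 (-1.09), P4ha1 (-1.03) and Ddit4 (-1.27 on the log2 scale), which act in mitochondrial clearance, pH control, collagen hydroxylation and mTOR inhibition.

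The promoters of Ldha and Pgk1, both textbook targets of hypoxia-inducible factors, are shown as one that rose and one that did not pass the test, chosen with these results known. Each run is the 250 bases before a start site of RefSeq (GRCm38.p6), 5′ to 3′ on the gene's strand, at chr7:46845554-46845803 and chrX:106186850-106187099, both on the plus strand, with matches to the core letters ACGTG or GCGTG on either strand in capitals.
Ldha promoter: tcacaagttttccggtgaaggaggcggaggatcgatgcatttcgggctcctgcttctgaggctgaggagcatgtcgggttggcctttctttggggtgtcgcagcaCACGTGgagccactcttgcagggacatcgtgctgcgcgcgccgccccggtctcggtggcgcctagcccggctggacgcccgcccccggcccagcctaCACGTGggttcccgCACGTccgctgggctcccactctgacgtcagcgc
Pgk1 promoter: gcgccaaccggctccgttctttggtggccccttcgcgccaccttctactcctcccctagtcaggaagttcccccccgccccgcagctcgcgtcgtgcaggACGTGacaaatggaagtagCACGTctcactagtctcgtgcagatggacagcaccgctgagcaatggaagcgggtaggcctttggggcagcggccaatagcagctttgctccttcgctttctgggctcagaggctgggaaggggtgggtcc
The Ldha window held 5 matches on both strands together, of which 4 belong to 2 copies of CACGTG, the E-box read by Myc family factors, which contains ACGTG on each strand. The Pgk1 window held 2 and no CACGTG. Among genes that fell, the windows of Hk2 and Slc2a1 also held 2, those of Pkm 0 and 1, and those of Pfkl and Ldhb 1 each. Among genes that rose, the windows of Hk1 held 0 and 3, those of Pklr 0 and 0, and the other Ldha window 1. All of these lacked CACGTG. The Hk1 window with 3 matches covers the start of a transcript that did not pass the test. Neither Hk1 window covers a start of the Hk1 transcripts that rose. Whether the numbers go with the direction of change was not tested. Of all 32851 RefSeq promoter windows of this length, 38.6% held at least 1 match to the core and 16.7% held 2 or more, and 6.0% held CACGTG. These are matches of letters and not measured binding sites.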

How the data were processed

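The authors sequenced HSC libraries made with a SMART-Seq kit (v4 per the labels, v3 in the study's methods) and Nextera XT, and deposited 1 table per library with log2(TPM + 1) values per transcript of GENCODE M17 (GRCm38), quantified with Salmon 0.9.1. TPM was recovered as the power of 2 of each value minus 1 and summed per gene. TPM keeps no read depth, so depth is unknown and no counting intervals are given. The header deposited with the second library labelled Reg1Δ/Δ of experiment 2 names another library. The values under it differ from that other library's and were assigned by the deposit's record.

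Genes with at least 1 TPM in at least 5 of 10 libraries were tested with limma 3.58.1 (R 4.3.3; lmFit and eBayes on log2(TPM + 1), pseudocount 1) with the experiment as covariate, and p-values were adjusted by Benjamini-Hochberg over all tested genes (threshold 0.05); transcripts, single experiments and the interaction were fitted likewise. Scripts were tested on simulated data. Shares were compared by exact permutation within experiments. Copies were found with blastn 2.17.0 against GENCODE M21 transcripts (95% identity, 50% of the copy), whose coordinates and transcript names are used; promoters are from RefSeq. The members and lists were chosen with earlier results of these data known. Genes outside the members are named where they changed by at least 1 on the log2 scale at the threshold, at most 4 per list and direction, or belong to a fixed set named whatever its values (Tpi1, Pgam1, Ldhb, Hk3, Pfkp, Pfkm, Slc2a1, Slc2a3, Slc16a1, Pdk1, Pdk2, Pdk4, Hif1a and Myc). The alternatives tried are given with the limits.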

Additional observations from a re-analysis of the deposited data

Results flagged for a closer look

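Ddit4, an mTOR inhibitor induced by stress and hypoxia, was picked out because its response differed between the experiments by limma's interaction term (difference of the log2 fold changes, experiment 2 minus experiment 1, -1.87, FDR 0.0359). It had 0.694 to 1.37 TPM in the controls and 0.315 to 0.642 TPM in the libraries labelled Reg1Δ/Δ of experiment 1, and 37.5 and 48.2 against 7.76 and 6.87 TPM in experiment 2. In experiment 1 its TPM lay near the pseudocount of 1. The cause was not tested.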

How the results depend on the processing

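Of 240 repeats of the members' fold changes under alternatives, 220 kept direction and side of the threshold, 12 newly passed, 4 no longer passed and 4 reversed: Hk2 after quantile normalization (0.051), and Pgk1 in experiment 2 alone (0.0145), after median-of-ratios scaling (0.31) and with copies summed (0.0499). Pdk1, never called, reversed in experiment 1 alone (-0.0826) and with only protein_coding transcripts (-0.25). It also reversed without the first library labelled Reg1Δ/Δ of experiment 2 (-0.0118, and up to 0.21 with other libraries left out). Members higher numbered 6 instead of 2 after median-of-ratios scaling, and members lower 1 instead of 3 in experiment 2 alone. Pathway genes higher (17) and lower (27) became 7 higher without the experiment covariate, 2 and 11 in experiment 2 alone, 31 higher after median-of-ratios scaling and 11 higher at an FDR of 0.01. All genes higher (1933) and lower (4880) became 716 and 3052 without the covariate, 452 and 1581 in experiment 2 alone, 3861 and 2636 after quantile normalization, 3973 higher after median-of-ratios scaling and 1158 higher at an FDR of 0.01. The Hk2 share differed by -4.41 points in experiment 1, -2.42 in experiment 2 and -1.96 with only protein_coding transcripts. The cause of these shifts was not tested, beyond the fewer libraries of experiment 2 alone.

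Leaving out each library in turn gave 2 to 3 members higher and 3 to 4 lower. Pathway genes numbered 14 to 18 higher and 26 to 29 lower, and all genes 1548 to 1961 higher and 4409 to 5242 lower. Member transcripts numbered 4 to 5 higher and 2 to 8 lower. Share differences were -3.85 to -3.19 (Hk2), 7.78 to 8.70 (Ldha) and 6.16 to 10.8 points (M2). The 10.8 points were found with the first library labelled Reg1Δ/Δ of experiment 1 left out.

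The replicate numbers were not taken as pairs: deviations of same-numbered libraries correlated at 0.03, 0.18 and 0.07 in experiment 1 and -0.05 in experiment 2. With the replicate number as a block, 2 members were higher and 3 lower, 15 pathway genes higher and 27 lower, 1703 genes higher and 4545 lower, and 4 member transcripts higher and 2 instead of 4 lower; no member changed its call. Depth is unknown.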
